A study of Homo sapiens with 27 samples.

Results

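Deletion of a candidate enhancer of LDAH was compared with a non-targeting guide in 11 of the 27 libraries of the series, 4 LDAH deletion libraries against 7 negative control libraries of the same experiment set, B, over 14008 genes. Libraries were chosen by their titles and treatment labels, and no measured value entered the choice. All of them are bulk populations of teloHAEC, endothelial cells of the human aorta made immortal, in which 150000 cells per replicate were electroporated with Cas9 protein bound to guide RNA and collected 2 days later. In the LDAH deletion the guides flanked the enhancer of LDAH (named C2orf43 in the titles); the deleted interval, the guides and the share of edited alleles are not given in the labels. Set B also holds 4 HPRT-targeted libraries, in which the guide cuts the gene of a purine salvage enzyme. The other set, A, supplied a further contrast, 4 libraries with a SMAD3 enhancer deletion against 4 with the non-targeting guide. The labels name no cloning or sorting of edited cells, so each value is taken as an average over the electroporated population, in which fewer expressing cells cannot be told apart from less RNA per cell. The comparison asks what loss of the enhancer does to LDAH, to its neighbours and to the rest of the transcriptome.

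LDAH encodes a hydrolase that sits on lipid droplets, the organelles in which cells store triglyceride and cholesteryl ester under a coat of proteins such as the perilipins. Lipases release fatty acids from the droplets, and acyltransferases such as those encoded by DGAT1 and SOAT1 fill them. An enhancer is a stretch of regulatory DNA that raises transcription of a gene on the same chromosome, often over long distances, so its removal is judged first by the RNA of the nearby genes. Levels below are CPM, read counts scaled to a common library total with the TMM factors of edgeR, and each 3' tag library counts about 1 read per transcript, by design independent of transcript length.

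The promoters of 4 genes that the results turn on are shown with the matches to 6 common motifs in capitals. They are LDAH itself, KLF2 and TXN, which were lower in the deletion, and MDM2, which was higher. Each runs 5′ to 3′ along the gene's strand, from 250 bases before to 50 after the start in RefSeq on GRCh38.p14, at chr2:20823052-20823351, minus strand for LDAH, chr19:16324576-16324875, plus strand for KLF2, chr9:110256458-110256757, minus strand for TXN and chr12:68807922-68808221, plus strand for MDM2.
LDAH: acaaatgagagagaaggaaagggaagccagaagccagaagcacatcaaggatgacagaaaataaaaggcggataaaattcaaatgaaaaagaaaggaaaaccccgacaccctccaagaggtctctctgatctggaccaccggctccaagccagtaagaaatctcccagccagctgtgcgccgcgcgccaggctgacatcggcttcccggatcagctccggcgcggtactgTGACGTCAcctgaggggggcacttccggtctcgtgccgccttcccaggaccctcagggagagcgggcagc
KLF2: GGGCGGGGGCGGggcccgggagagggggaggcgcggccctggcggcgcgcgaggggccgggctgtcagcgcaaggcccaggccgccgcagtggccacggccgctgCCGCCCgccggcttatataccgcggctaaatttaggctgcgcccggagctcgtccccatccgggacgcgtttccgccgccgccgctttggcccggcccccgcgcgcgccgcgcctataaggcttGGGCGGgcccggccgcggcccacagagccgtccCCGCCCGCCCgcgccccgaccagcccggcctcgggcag
TXN: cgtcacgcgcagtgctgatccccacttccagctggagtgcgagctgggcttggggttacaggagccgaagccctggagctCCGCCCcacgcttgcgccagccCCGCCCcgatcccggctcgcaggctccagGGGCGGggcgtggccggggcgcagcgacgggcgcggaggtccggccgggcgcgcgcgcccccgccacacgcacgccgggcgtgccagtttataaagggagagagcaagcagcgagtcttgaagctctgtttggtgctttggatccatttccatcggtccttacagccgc
MDM2: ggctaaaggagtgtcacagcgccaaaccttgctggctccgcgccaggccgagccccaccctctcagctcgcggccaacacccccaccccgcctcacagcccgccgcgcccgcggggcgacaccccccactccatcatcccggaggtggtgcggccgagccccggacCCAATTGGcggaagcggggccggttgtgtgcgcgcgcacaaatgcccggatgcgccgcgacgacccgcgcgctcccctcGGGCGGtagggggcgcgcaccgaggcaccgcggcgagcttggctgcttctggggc
The motifs were searched on both strands: the E-box CACGTG, the cAMP response element TGACGTCA, the AP-1 motif TGANTCA, the antioxidant response element core TGACNNNGC, the GC box GGGCGG and the CCAAT box CCAAT. LDAH held 1 cAMP response element and none of the others. KLF2 held 6 GC boxes, some of them overlapping, and TXN held 3, and MDM2 held 1 GC box and 2 CCAAT matches that overlap on opposite strands. Among all 9339 tested genes with such a window, 3.39% held the cAMP response element, 71.2% a GC box and 37.3% a CCAAT box. Among the 136 windows of the 169 genes called lower below, the shares were 3.68%, 72.1% and 37.5%, all near the share of all genes. The E-box was in 8.82% of them against 10.2% of all, AP-1 in 6.62% against 4.25%, and the antioxidant core in 13.2% against 15.4%. Of the 28 genes called higher only 17 had a window, 60.7%, so their shares are not given.

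The 11 libraries held 3.43 to 6.41 M counts each, so a gene with 0 counts may still have had up to 0.468 to 0.875 CPM (3 counts). LDAH deletion replicate 4 and negative control replicates 6 and 7 stood apart from the rest. Their ribosomal protein genes took 17.1%, 15.1% and 15.6% of counts against 9.2% to 11.2% in the other 8 libraries, and their median correlation with the other libraries was 0.872 to 0.896 against 0.941 to 0.965. Expression in these 3 libraries followed transcript length. With genes in 5 equal groups by transcript length, the median gene of the shortest group stood 0.31 to 0.38 above the mean of control replicates 1 to 5 on the log2 scale, and that of the longest group at -0.44 to -0.50. The comparison was therefore fitted with all 11 libraries, together with the 4 HPRT-targeted ones. It was fitted again as 3 against 5, without these 3 or the HPRT-targeted libraries. Each value names its fit, and from the transcription factors onward a value with no fit named is from 3 against 5. Endothelial markers were present in every library (PECAM1, 185 to 581 CPM; ERG, 100.1 to 229 CPM), apart from VWF, which ran from 0 to 6.31 CPM. Of the short list of markers of other cell types, ACTA2 (14.6 to 47.5 CPM), TAGLN (3.06 to 19.7 CPM) and CD14 (0 to 4.04 CPM) were measured, and its other mesenchymal, epithelial and blood markers have no row in the table analysed here. Of the longer lists, 17 of 25 mesenchymal and 5 of 18 epithelial and blood cell markers have a row. The latter summed to 917 to 1579.5 CPM in the deletion and 779 to 1303 CPM in the control. In 3 against 5 their sums did not overlap, at 917 to 948 CPM in the deletion and 779 to 903 CPM in the control. Their part in the results was not tested.

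**Figure D1:**
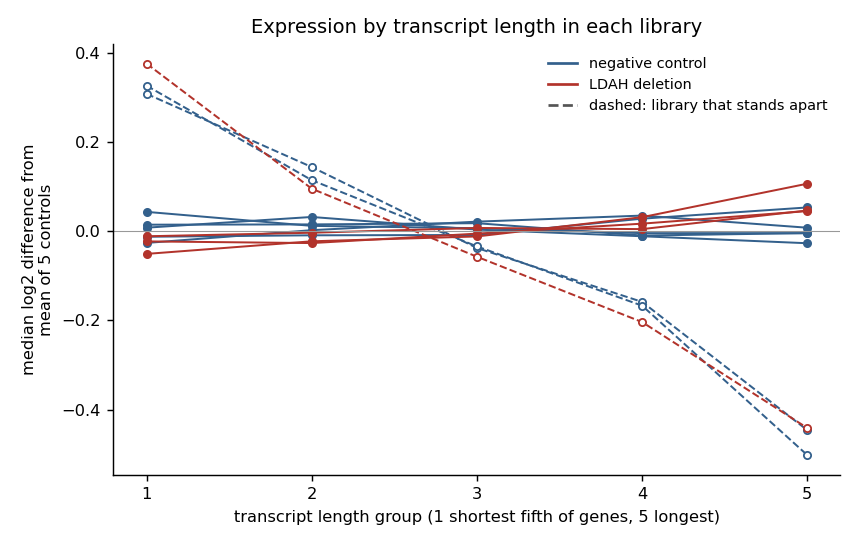
Median log2 difference of genes from the mean of negative control replicates 1 to 5, by transcript length group, with 1 line per library. The 3 dashed libraries, LDAH deletion replicate 4 and negative control replicates 6 and 7, fall from 0.31 to 0.38 in the shortest group to -0.44 to -0.50 in the longest, while the other 8 stay between -0.051 and 0.106.

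LDAH (ENSG00000118961; chromosome 2, 20684014 to 20823130, GRCh38, minus strand) was weakly expressed, and its level was lower in the deletion on average without passing the test across genes. The 4 deletion libraries held 61, 53, 40 and 9 reads of LDAH, and the 7 controls held 82, 60, 76, 49, 113, 75 and 46. As levels these were 10.9, 8.81, 6.81 and 2.80 CPM in the deletion and 7.96 to 18.8 CPM (median 11.6) in the control. The groups overlapped: deletion replicates 1 and 2 lay above control replicate 4, and replicate 4, with the fewest reads, was the lowest library of all. The log2 fold change was -0.76 ± 0.40 (SE; 95% interval -1.60 to 0.09), with an adjusted p of 1.00 (edgeR quasi-likelihood F test, Benjamini-Hochberg over all genes). The exact two-sided permutation test of log2 CPM gave a difference of -0.84 with p = 0.0303 over 330 arrangements. Without the 3 libraries that stand apart, LDAH was at 8.83 ± 2.03 CPM (SD, n = 3) against 12.5 ± 4.07 CPM (n = 5). The fold change was then -0.49 ± 0.33 (95% interval -1.17 to 0.20, edgeR adjusted p = 0.58), and the exact permutation p was 0.214 over 56 arrangements. Deletion replicate 4 thus carried part of the difference, which was -0.50 without that library alone and -1.003 without deletion replicate 1. The HPRT-targeted libraries ranged from 7.76 to 31.4 CPM of LDAH.

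Neighbouring genes did not pass the test in either comparison. Within 1 Mb of LDAH 9 genes were tested, 4 higher and 5 lower with all libraries (51.7% and 48.3% of all genes), and the same 9 lay within 2 Mb. Genes near LDAH that have no row in the data could not be read. HS1BP3, the nearest of the 9 at 32.9 kb, stood at 10.5, 13.1, 13.8 and 10.9 CPM in the deletion. In the control it was at 6.82 to 15.4 CPM (median 12.8), with a fold change of -0.0082 ± 0.34 on the log2 scale. RHOB, a small GTPase gene of the actin cytoskeleton 234.6 kb away, had -0.083 ± 0.28, and PUM2, which encodes a translational repressor that binds RNA, had -0.18 ± 0.22 at 42.4, 33.8, 43.4 and 46.9 CPM. SDC1, the gene of the proteoglycan syndecan-1, had 0.20 ± 0.46 with all libraries and -0.80 ± 0.31 in 3 against 5. Its deletion libraries were at 10.5, 4.82, 10.04 and 40.4 CPM and the controls at 6.42 to 18.2 CPM (median 15.1), and without deletion replicate 4 alone the value was -0.74. APOB, the apolipoprotein gene 178.3 kb away, was near the detection limit at 1.78, 2.33, 4.42 and 0 CPM, with a median of 0.666 CPM in the control. Its fold change was 1.37 ± 1.19 with all libraries and 1.32 ± 0.86 in 3 against 5. MATN3, a cartilage matrix protein gene, was at 0.713, 1.83, 1.02 and 0 CPM against 0.664 to 7.49 CPM (median 3.74) in the control, a fold change of -1.99 ± 0.91. It was the 1 neighbour with an unadjusted p under 0.05 when all libraries entered (0.0419), beside 4.61% of all genes. In 3 against 5 there were 2, SDC1 (edgeR unadjusted p = 0.0187) and MATN3 (0.0304), beside 13.1% of all genes. SDC1 in deletion replicates 1 to 3 lay below control replicates 1 to 5 without overlap, as did 5.68% of all genes. With all libraries LAPTM4A, a lysosomal membrane protein gene, had -0.026 ± 0.27, WDR35, of intraflagellar transport, 0.10 ± 0.27, and TTC32 0.006 ± 0.38. In 3 against 5 HS1BP3 had 0.082 ± 0.31, RHOB -0.085 ± 0.20, PUM2 -0.22 ± 0.18, MATN3 -1.73 ± 0.75, LAPTM4A -0.056 ± 0.13, WDR35 0.095 ± 0.32 and TTC32 0.22 ± 0.26.

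**Figure D2:**
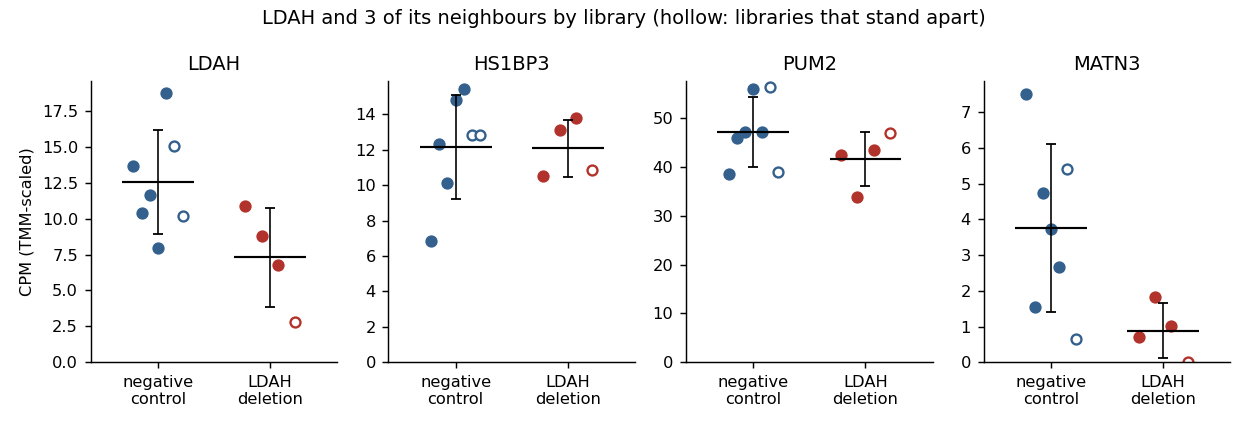
CPM of LDAH, HS1BP3, PUM2 and MATN3 in each of the 7 negative control (blue) and 4 LDAH deletion (red) libraries; bars show the mean and SD, and hollow points the 3 libraries that stand apart. LDAH deletion replicates run from 2.80 to 10.9 CPM and overlap the controls, which start at 7.96 CPM.

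Across all genes, the answer depended on which libraries were fitted. With all 15 libraries of set B, edgeR called 0 of 11769 genes (0%), with a smallest adjusted p of 0.693. In that fit 543 genes (4.61%) had an unadjusted p under 0.05, 151 higher (1.28%) and 392 lower (3.33%). DESeq2 called 14 genes on the same 15 libraries and limma voom with sample quality weights called 0. The 11 compared libraries alone also gave 0 edgeR calls. Leaving out only the 3 libraries gave 2 calls among 11884 genes. The HPRT-targeted libraries were still in that fit, among them replicates 2 and 4, which also stand apart. Without the HPRT-targeted libraries as well, as 3 against 5, edgeR called 197 of 11589 genes (1.70%), 28 higher (0.242%) and 169 lower (1.46%). At an unadjusted p under 0.05 there were 597 higher (5.15%) and 926 lower (7.99%). DESeq2 then called 371 and limma voom 112. The common dispersion, a measure of the spread between replicates, was 0.195 with all 15 libraries of set B and 0.0580 in the 8. Of the genes called lower, 80 fell more than 2-fold, as against 5 of the 28 higher that rose as much. Deletion replicate 3 was the lowest of the 3 in 133 of the 169. Its removal left 51 calls, removal of negative control replicate 5 left 77, and removal of control replicate 4 left 113. The labels number the deletion libraries 50 to 54 and the controls 56 to 67 without saying what the number means, so handling that followed it cannot be told apart from the deletion. "Fell" and "rose" below refer to these 3 against 5 calls, by edgeR with adjustment over all genes tested.

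**Figure D3:**
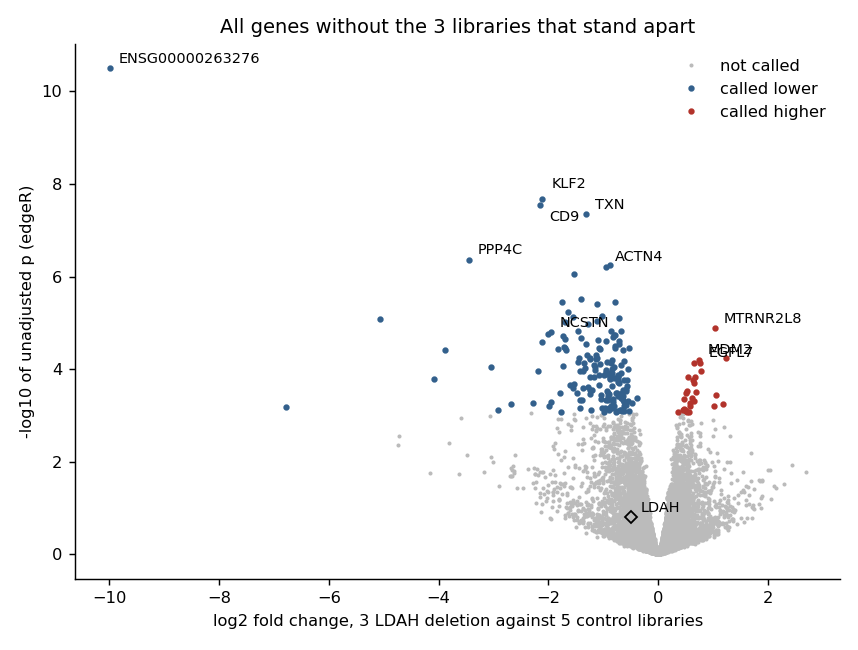
Log2 fold change of 11589 genes in 3 LDAH deletion against 5 control libraries (horizontal) and -log10 of edgeR's unadjusted p (vertical), with the 169 genes called lower in blue and the 28 called higher in red. LDAH, the open diamond at -0.49, is among the genes not called.

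The libraries left out allow the same genes to be read where the calls did not use them. Deletion replicate 4 lay below both control replicates 6 and 7 in 89 of the 169 genes called lower (52.7%), beside 31.5% of all tested genes. It lay above both in 17 of the 28 called higher (60.7%), beside 35.6% of all. Against the mean of all 7 controls, by contrast, replicate 4 was lower in 50.9% of the genes called lower and in 55% of all genes. It was above that mean in 12 of the 28 called higher (42.9%) and in 45% of all genes. All 4 deletion libraries lay below all 7 controls in 22 of the genes called lower and above them in 4 of those called higher. In 3 against 5, 658 of all genes (5.68%) were lower and 415 (3.58%) higher without overlap, among them 165 and 24 of those called. Over all genes with all libraries, 85 (0.722%) were lower and 43 (0.365%) higher without overlap. Some genes below were named because their groups do not overlap in all libraries. In those the lack of overlap follows from the choice.

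Among transcription factors, KLF2 and MYC fell, as did SNAI1 and HES1. KLF2 (ENSG00000127528; chromosome 19, 16324817 to 16327874), which responds to blood flow and keeps endothelium quiescent, was at 15.3, 17.5, 11.9 and 46.3 CPM in the deletion and at 38.5 to 85.004 CPM (median 61.2) in the control. Deletion replicates 1 to 3 lay far below every control and replicate 4 within their range. The fold change was -2.11 ± 0.24 in 3 against 5 (adjusted p = 0.000111) and -1.49 ± 0.34 with all libraries (adjusted p = 0.693). MYC (ENSG00000136997; chromosome 8, 127735434 to 127741434), a driver of growth and ribosome synthesis, was at 7.48, 14.96, 8.34 and 18.6 CPM against 25.3 to 45.7 CPM (median 30.1), so that all 4 deletion libraries lay below all 7 controls. Its fold change was -1.63 ± 0.27 (adjusted p = 0.00521), and -1.37 ± 0.33 with all libraries. HES1, a repressor induced by Notch, fell by 1.32 ± 0.25 at 25.1, 34.6, 16.7 and 77.4 CPM against 41.98 to 113 CPM (median 79.7). SNAI1, a factor of mesenchymal transition, was at 4.28, 4.16, 1.36 and 7.77 CPM against 8.50 to 19.3 CPM (median 12.5), again without overlap, with -1.78 ± 0.42. MAFG, a small MAF protein that pairs with NRF2, had -0.63 ± 0.16 at 56.8, 45.6, 49.5 and 63.4 CPM against 65.7 to 101 CPM (median 89.2), without overlap. With all libraries HES1 had -0.98 ± 0.39, SNAI1 -1.58 ± 0.45 and MAFG -0.66 ± 0.17. KLF2 and MYC passed in all 14 alternatives of the 3 against 5 comparison. For genes that lost their call in some alternative, the log2 fold change, the adjusted p and the alternative are given where the adjusted p was largest: HES1 (-1.09, 0.0625, without LDAH deletion replicate 3), SNAI1 (-1.71, 0.146, limma voom) and MAFG (-0.61, 0.187, without LDAH deletion replicate 3).

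CD9, TNFRSF12A and CDH5 were among the genes of surface proteins called lower. CD9 (ENSG00000010278; chromosome 12, 6199715 to 6238271), a tetraspanin that organises membrane partners, was at 91.4, 74.5, 33.3 and 414 CPM in the deletion and at 180.4 to 639 CPM (median 337) in the control. Replicate 4 alone was as high as the controls. The fold change was -2.14 ± 0.25 (adjusted p = 0.000111) without the 3 libraries and -1.24 ± 0.51 with them. TNFRSF12A, the receptor of the cytokine TWEAK, was at 26.9, 31.8, 20.9 and 51.6 CPM against 53.4 to 100.3 CPM (median 59.6), with no overlap and -1.40 ± 0.22. CDH5, the cadherin of endothelial junctions, fell by 0.78 ± 0.14, and the levels were 216, 179, 129 and 112 CPM against 127 to 338 CPM (median 291), where the low controls are the 2 that stand apart, at 127 and 174 CPM. RAP2A, a small GTPase of adhesion, had -1.11 ± 0.18, and NCSTN, the nicastrin subunit of gamma-secretase, had -1.96 ± 0.35 at 13.9, 10.5, 2.72 and 30.4 CPM against 15.3 to 51.4 CPM (median 36.4). EFNB1, an ephrin ligand, was at 47.6, 45.6, 46.1 and 45.05 CPM, below all controls at 59.7 to 104 CPM (median 76.4), with -0.77 ± 0.18. RNF130, a ubiquitin ligase of membranes, was at 14.96, 10.8, 11.9 and 19.3 CPM against 21.6 to 55.3 CPM (median 34.5), with -1.24 ± 0.25, and it had the smallest p of all genes when all libraries entered (adjusted p = 0.693). SLC20A2, a phosphate carrier, had -1.05 ± 0.20 at 26.4, 18.96, 20.4 and 35.4 CPM against 39.1 to 58.3 CPM (median 48.4). Further endothelial receptors, PROCR, which binds protein C, and S1PR1, which binds sphingosine 1-phosphate, had -0.73 ± 0.16 and -0.53 ± 0.14. With all libraries TNFRSF12A had -1.11 ± 0.27, CDH5 -0.71 ± 0.35, RAP2A -0.78 ± 0.37, NCSTN -1.30 ± 0.49, EFNB1 -0.80 ± 0.17 and RNF130 -1.31 ± 0.27. CD9, TNFRSF12A, CDH5, RAP2A and NCSTN passed in every alternative. For the rest the largest adjusted p was reached by EFNB1 (-0.76, 0.12, without LDAH deletion replicate 3), RNF130 (-1.13, 0.0667, limma voom), SLC20A2 (-1.002, 0.0573, without LDAH deletion replicate 3), PROCR (-0.57, 0.149, without LDAH deletion replicate 3) and S1PR1 (-0.39, 0.294, without LDAH deletion replicate 3).

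**Figure D4:**
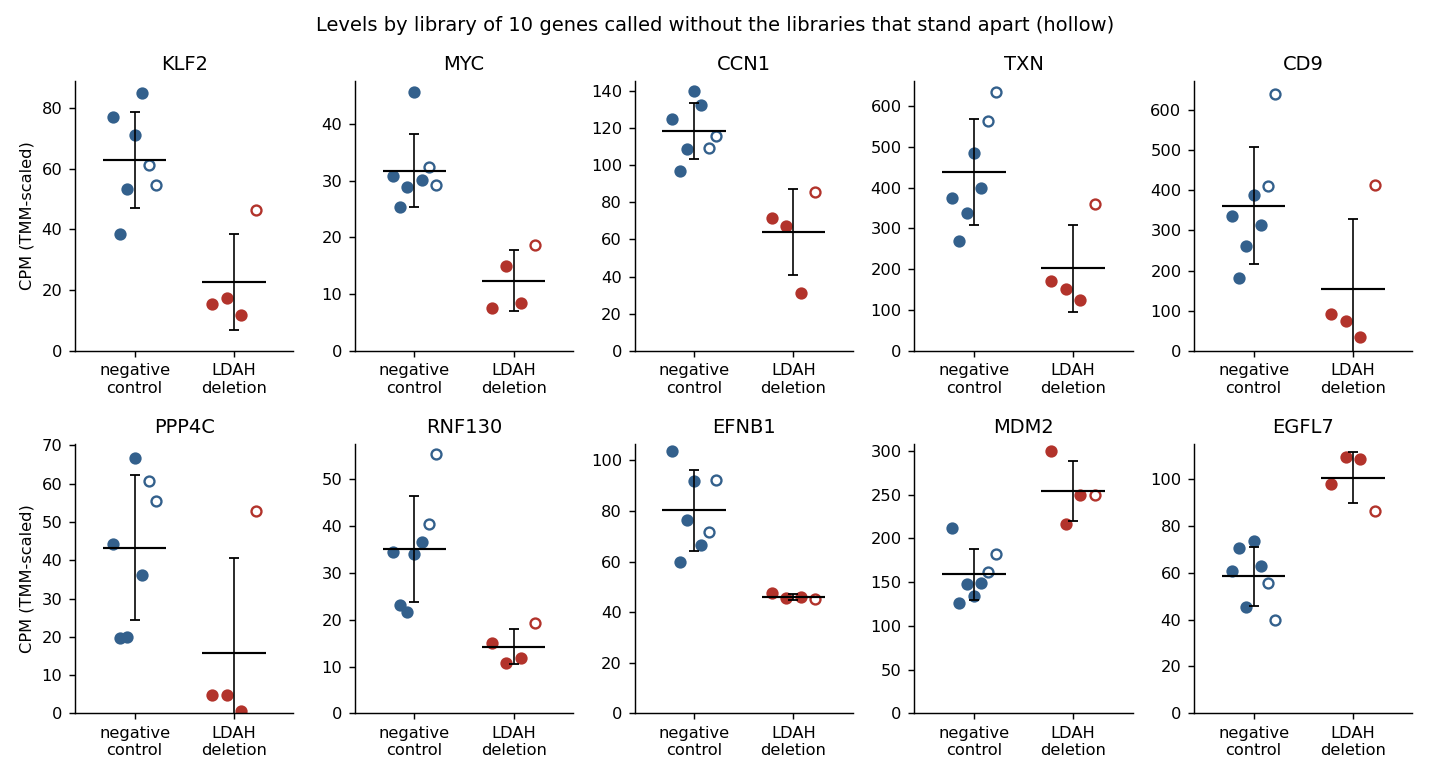
CPM of 10 genes by library in the negative control (blue, n = 7) and the LDAH deletion (red, n = 4), with mean and SD; hollow points are the 3 libraries that stand apart. For KLF2, CD9, TXN and PPP4C the hollow deletion point lies within the range of the controls, while for MYC, CCN1, EFNB1 and MDM2 all 4 deletion libraries lie outside it.

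TXN (ENSG00000136810; chromosome 9, 110243811 to 110256640), the thioredoxin that reduces protein disulfides, was at 172, 152, 125 and 359 CPM against 270.1 to 635 CPM (median 399), with -1.31 ± 0.16 (adjusted p = 0.00013) and -1.12 ± 0.29 with all libraries. MANF, a factor of endoplasmic reticulum stress, had -1.02 ± 0.17 at 83.7, 90.95, 50.4 and 161 CPM against 126 to 196 CPM (median 148). C1QBP, a protein of the mitochondrial matrix, had -1.53 ± 0.22 at 60.6, 75.7, 28.9 and 311 CPM, with replicate 4 again inside the control range of 129.5 to 377 CPM (median 174). NDUFB3 of complex I had -1.70 ± 0.30 and COX6C of complex IV -0.63 ± 0.13. The complex II subunits SDHB and SDHC had -0.89 ± 0.22 and -0.82 ± 0.20, and ATP5F1C of ATP synthase -0.67 ± 0.17. TXN, MANF, C1QBP and NDUFB3 passed in every alternative; the others did not, with COX6C (-0.48, 0.0833, without LDAH deletion replicate 3), SDHB (-0.70, 0.277, without LDAH deletion replicate 3), SDHC (-0.58, 0.245, without LDAH deletion replicate 3) and ATP5F1C (-0.45, 0.29, without LDAH deletion replicate 3) at their largest adjusted p.

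PPP4C (ENSG00000149923; chromosome 16, 30075978 to 30085377), the catalytic subunit of protein phosphatase 4, fell steeply in 3 libraries and not in replicate 4. It was at 4.81, 4.82, 0.510 and 52.8 CPM in the deletion and at 19.6 to 66.6 CPM (median 44.3) in the control. Replicates 1 to 3 were below all controls, and replicate 4 was near their upper end. The fold change was -3.45 ± 0.48 in 3 against 5 (adjusted p = 0.001) but -1.51 ± 0.74 with all libraries, and limma voom did not call it in 3 against 5 (adjusted p = 0.0667). The other 16 subunits of PP4 and PP2A tested gave 0 calls, beside 1.70% of all genes. At so low a share, 0 calls among 16 genes do not set PPP4C apart from them. ACTN4, which cross-links actin, had -0.95 ± 0.14 at 531, 455, 389 and 226 CPM. Its control levels ran from 699.8 to 1056 CPM in replicates 1 to 5 and were 177 and 64.2 CPM in replicates 6 and 7, and with all libraries the value was -0.75 ± 0.67. MYL12B, a myosin light chain, had -0.87 ± 0.12, with the caution that MYL12A is nearly identical. CCN1, a matrix protein induced by stretch, was at 71.6, 67.3, 30.97 and 85.4 CPM against 96.97 to 139.9 CPM (median 116), without overlap, and had -1.08 ± 0.21. CHST14, a sulfotransferase of dermatan sulfate, had -1.74 ± 0.28, and -1.15 ± 0.45 with all libraries. UBE2A, a ubiquitin-conjugating enzyme, and EWSR1, an RNA-binding protein, had -0.88 ± 0.19 and -0.85 ± 0.17, both with all 4 deletion libraries below all 7 controls. The antisense RNA EHBP1-AS1 had -2.12 ± 0.40; whether counting used strand is not given in the sources used here, so its reads are uncertain. Calls of these last 3 were lost at most as in UBE2A (-0.68, 0.145, without LDAH deletion replicate 3) and EWSR1 (-0.71, 0.102, without LDAH deletion replicate 3), and the adjusted p of EHBP1-AS1 reached 0.083 with limma voom.

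One transcript, listed as AC020978.7 in the annotation, had the smallest p in 3 against 5. This gene, ENSG00000263276 (chromosome 16, 68224713 to 68227734), is annotated as overlapping NFATC3 on the same strand and AC020978.5 on the other. It had 0 reads in deletion replicates 1 to 3 and 19 in replicate 4, against 86 to 196 in each control. Over the 3 libraries the floor of 3 counts is 0.171 CPM, and the 5 controls pooled stood at 21.2 CPM, so the level was at least 124-fold lower (adjusted p = 3.69e-07). Among the HPRT-targeted libraries it ran from 0 to 26.1 CPM, so a library at 0 was not particular to the deletion. NFATC3, which spans it, had 0.53 ± 0.19 and was not called (adjusted p = 0.212). Reads of overlapping genes can be split by the counting, so this value is uncertain.

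The 28 genes that rose did so by smaller factors. MDM2 (ENSG00000135679; chromosome 12, 68808176 to 68850686), whose product marks p53 for degradation, was at 299, 216, 249 and 249.8 CPM in the deletion against 126 to 212 CPM (median 149), with all 4 libraries above all controls. The fold change was 0.74 ± 0.15 (adjusted p = 0.0123) and 0.68 ± 0.16 with all libraries. EGFL7 (ENSG00000172889; chromosome 9, 136658856 to 136672678), a secreted factor of endothelial cells, was at 97.8, 109, 109 and 86.4 CPM against 39.6 to 73.6 CPM (median 60.7), also without overlap, with 0.76 ± 0.16. SNHG1, a host gene of small nucleolar RNAs, was at 111, 80.5, 91.7 and 72.4 CPM against 26.8 to 70.1 CPM (median 49.6), with 0.78 ± 0.16, and PTPN4, a tyrosine phosphatase gene, had 1.02 ± 0.25. These 2 were the others called higher whose deletion libraries all exceeded all 7 controls. SPATA5, a gene of ribosome maturation, had 1.24 ± 0.25, RNF111, a ubiquitin ligase of TGF-beta signalling, 1.06 ± 0.25, and POMGNT2, which glycosylates dystroglycan, 1.18 ± 0.29. RAB5C of early endosomes had 0.54 ± 0.12, the helicase gene ZNFX1 0.66 ± 0.13 and C4orf48 0.65 ± 0.15. SMG1, a kinase of nonsense-mediated decay with near-identical copies elsewhere in the genome, had 0.63 ± 0.14. MTRNR2L8, a nuclear copy of the mitochondrial 16S ribosomal RNA, was at 8381, 3342, 6249 and 3521 CPM against 2163 to 3848 CPM (median 2776), with 1.03 ± 0.18; near-identical sequence makes its counts uncertain. Of these genes MTRNR2L8 alone passed in every alternative. The largest adjusted p of the leading ones were MDM2 (0.61, 0.0754, without LDAH deletion replicate 1), EGFL7 (0.74, 0.0644, without LDAH deletion replicate 3), SNHG1 (0.64, 0.0917, without LDAH deletion replicate 1) and PTPN4 (0.89, 0.245, without LDAH deletion replicate 3).

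Of the lipid droplet proteins and lipases, LDAH included, 35 were tested in 3 against 5, with 23 higher and 12 lower, and a median log2 fold change of 0.12 beside 0.02 over all genes. With all libraries 18 of 34 were higher, beside 51.7% of all genes, with a median of 0.07. The 2 members called, beside 1.70% of all genes, were both lower. UBXN8, a tether of ubiquitin-handling machinery in the endoplasmic reticulum membrane, was at 9.80, 10.1, 12.9 and 36.3 CPM against 17.6 to 52.6 CPM (median 24.98), with -1.04 ± 0.25 (adjusted p = 0.0341). ACAT1, at 45.6, 20.95, 30.8 and 63.4 CPM against 55.1 to 99.5 CPM (median 61.9), encodes a thiolase of mitochondrial ketone metabolism, not a droplet enzyme. ACAT1 had -0.93 ± 0.22. Neither of the 2 members called is thus a coat protein or a lipase of droplets. PLIN3, a perilipin coat protein, was higher in all 4 deletion libraries, at 208, 198, 240.1 and 217 CPM, than in any control, at 159.8 to 195 CPM (median 165), and had 0.33 ± 0.12 (adjusted p = 0.197), short of the threshold. The droplet genes DGAT1, PLIN2, ABHD5 and PNPLA2 had 0.37 ± 0.30, 0.31 ± 0.23, 0.13 ± 0.14 and 0.12 ± 0.21, with adjusted p from 0.613 to 0.861. ACAT1 lost its call in 4 of the 14 alternatives and UBXN8 in 8, with ACAT1 (-0.89, 0.135, without LDAH deletion replicate 3) and UBXN8 (-0.98, 0.098, without LDAH deletion replicate 2) at the largest adjusted p.

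More sterol genes were lower than higher, but their summed levels overlapped between the groups. Of 25 genes of cholesterol synthesis and uptake, 16 were lower in 3 against 5 with a median of -0.093, beside 47.4% of all genes lower. With all libraries 19 were lower with a median of -0.19. The list summed to 2476 to 2949 CPM in deletion replicates 1 to 3 and 2716 to 3012 CPM in control replicates 1 to 5. SREBF1, which encodes a transcription factor of lipid synthesis, was the 1 called, at 23.5, 16.6, 17.9 and 19.6 CPM against 19.5 to 59.7 CPM (median 30.9), with -1.08 ± 0.24 (adjusted p = 0.023), a call lost in 5 alternatives, at most at SREBF1 (-1.02, 0.123, without LDAH deletion replicate 3). IDI1, an isomerase of the mevalonate pathway, was below every control in all 4 deletion libraries, at 56.6, 59.2, 31.99 and 43.8 CPM against 60.6 to 106 CPM (median 72.6), with -0.47 ± 0.18 and no call (adjusted p = 0.249). INSIG1, which holds the sterol sensor in place, had -0.42 ± 0.13. Of the 7 sterol efflux genes 6 were lower with a median of -0.10 and 0 were called. The counts of calls in both sterol lists stand beside 1.70% of all genes in 3 against 5.

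Genes induced by p53 were higher in 27 of 38 members in both comparisons, with a median of 0.13 in 3 against 5 and 0.19 with all libraries, beside 0.02 and 0.01 over all genes. MDM2 was the 1 member called. The counts of calls in this paragraph stand beside 1.70% of all genes in 3 against 5. CDKN1A, the p21 brake on the cell cycle, was at 545, 348, 440.5 and 697 CPM against 249 to 518 CPM (median 293), with overlapping groups and 0.57 ± 0.16 (adjusted p = 0.0758). BAX, an effector of cell death, and ZMAT3, which controls splicing, had 0.48 ± 0.21 and 0.58 ± 0.18. Of the 40 proliferation genes, 21 were lower with a median of -0.017, and the calls were CCNE2, a cyclin of S phase entry (-0.99 ± 0.25), and HMGB2, a chromatin protein of dividing cells (-0.65 ± 0.15). PCNA, the sliding clamp of replication, was at 83.2, 80.6, 75.5 and 78.3 CPM, below every control at 104 to 165 CPM (median 108), with -0.47 ± 0.14 and an adjusted p of 0.1. The same list of p53 targets had a median of 0.18 in HPRT-targeted cells and 0.22 in the SMAD3 deletion. Each was taken against its non-targeting control and without the libraries that stand apart. The HPRT value shares its controls with the LDAH deletion and rests on HPRT-targeted replicates 1 and 3. The 27 genes of the double-strand break response had a median of 0.084 and 0 calls. CCNE2 and HMGB2 lost their calls in 10 and 5 alternatives, up to CCNE2 (-0.83, 0.164, without LDAH deletion replicate 2) and HMGB2 (-0.57, 0.168, without LDAH deletion replicate 3).

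The 13 mitochondrially encoded genes were all higher in the deletion under both scalings tried, TMM and DESeq2's size factors, with a median of 0.30 in 3 against 5 and 0.25 with all libraries. In the SMAD3 deletion their median was -0.32. They share 1 genome and its transcripts, so they are not independent. MT-ATP8, of ATP synthase, was at 2933, 1782, 2682 and 912 CPM against 462 to 2102 CPM (median 1415), and MT-ND5, of complex I, at 1252, 870.1, 1767 and 604 CPM against 394 to 1036 CPM (median 715); the groups overlapped. Both were called, with 0.68 ± 0.15 and 0.69 ± 0.16, and both were lost under DESeq2, at up to MT-ATP8 (0.53, 0.115, without LDAH deletion replicate 1) and MT-ND5 (0.40, 0.319, without LDAH deletion replicate 3). As a whole these genes took 1.42% to 1.98% of counts in deletion replicates 1 to 3, 1.18% in replicate 4 and 0.998% to 1.77% in the controls. Of 45 genes of the respiratory chain encoded in the nucleus, 30 were lower in 3 against 5 (median -0.06) and 24 with all libraries (median -0.019), and the 5 calls given above stand beside 1.70% of all genes. Of 77 cytosolic ribosomal protein genes, 51 were lower in 3 against 5 with a median of -0.053, but 47 were higher with all libraries (median 0.026), and 5 were called beside 1.70% of all genes. RPL30, RPL19, RPL34, RPS29 and RPL23 fell by 0.79 ± 0.13, 0.67 ± 0.12, 0.70 ± 0.13, 0.78 ± 0.15 and 0.47 ± 0.12. RPL23 lost its call in 6 of 14 alternatives, up to RPL23 (-0.33, 0.224, without LDAH deletion replicate 3), and the other 4 in 0. Ribosomal protein genes have many processed copies, so these counts are uncertain, and the list's share of counts is one of the measures by which the 3 libraries stand apart.

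The counts of calls in the stress and signalling lists stand beside 1.70% of all genes in 3 against 5, and those of lower members beside 47.4%. The summed levels of most of these lists overlapped between deletion replicates 1 to 3 and control replicates 1 to 5. The exceptions were Notch and gamma-secretase genes (816 to 911 CPM against 972 to 1031 CPM) and hypoxia and glycolysis genes (9047 to 9684 CPM against 8484 to 8908 CPM). Of 19 NRF2 targets 14 were lower (median -0.21, and -0.20 with all libraries), with TXN the 1 called, and of 27 genes of the unfolded protein and integrated stress response 19 were lower (median -0.21, and -0.18 with all libraries), with MANF the 1 called. EDEM1, which sends misfolded proteins to degradation, was at 16.9, 18.3, 11.4 and 18.02 CPM against 18.04 to 42.5 CPM (median 31.8), with -0.75 ± 0.26 and an adjusted p of 0.176. Of 20 Notch and gamma-secretase genes 14 were lower (median -0.15, and -0.098 with all libraries), with NCSTN and HES1 called. Immediate early genes had 11 of 17 lower (median -0.076, and -0.20 with all libraries), with KLF2 and MYC called. The targets of TGF-beta and SMAD3 were divided, 13 higher and 14 lower, and 15 to 12 with all libraries, and CCN1 and ID3, an inhibitor of helix-loop-helix factors (-0.63 ± 0.15), were called. Endothelial identity genes were divided 18 to 18, and 19 higher to 17 lower with all libraries, with EGFL7 called higher and CDH5, PROCR and S1PR1 lower. Among 14 endothelial inflammatory genes 9 were lower (median -0.10, and -0.14 with all libraries) and 0 called. CXCL8, a neutrophil attractant, was at 3.38, 11.6, 11.9 and 7.77 CPM against 11.98 to 64.4 CPM (median 19.9), without overlap, with -1.37 ± 0.38 and an adjusted p of 0.078. Interferon-stimulated genes were higher in 22 of 33 (median 0.11) and 26 of 34 with all libraries (median 0.28), with 0 called; ISG15, a ubiquitin-like antiviral protein, was at 20.3, 17.5, 22.8 and 70.2 CPM, with replicate 4 above every control. Of 17 heat shock genes 12 were higher, and 10 with all libraries, while the calls, HSPA1A (-0.85 ± 0.21, nearly identical to HSPA1B) and BAG3, its co-chaperone (-0.64 ± 0.16), were lower. Of 28 genes of hypoxia and glycolysis 18 were higher, and 17 with all libraries, and the 1 call, LDHA of lactate production, was lower (-0.58 ± 0.13). Mesenchymal markers were higher in 12 of 17 (median 0.19, and 0.20 with all libraries), and the 1 call, SNAI1, was lower. The summed level of those markers was 7157 to 10376 CPM in deletion replicates 1 to 3 and 9180 to 10829 CPM in control replicates 1 to 5. Calls of ID3, HSPA1A, BAG3 and LDHA were lost in some alternatives, at up to ID3 (-0.50, 0.246, without LDAH deletion replicate 3), HSPA1A (-0.66, 0.182, without LDAH deletion replicate 1), BAG3 (-0.55, 0.208, without LDAH deletion replicate 3) and LDHA (-0.41, 0.174, without LDAH deletion replicate 3).

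**Figure D5:**
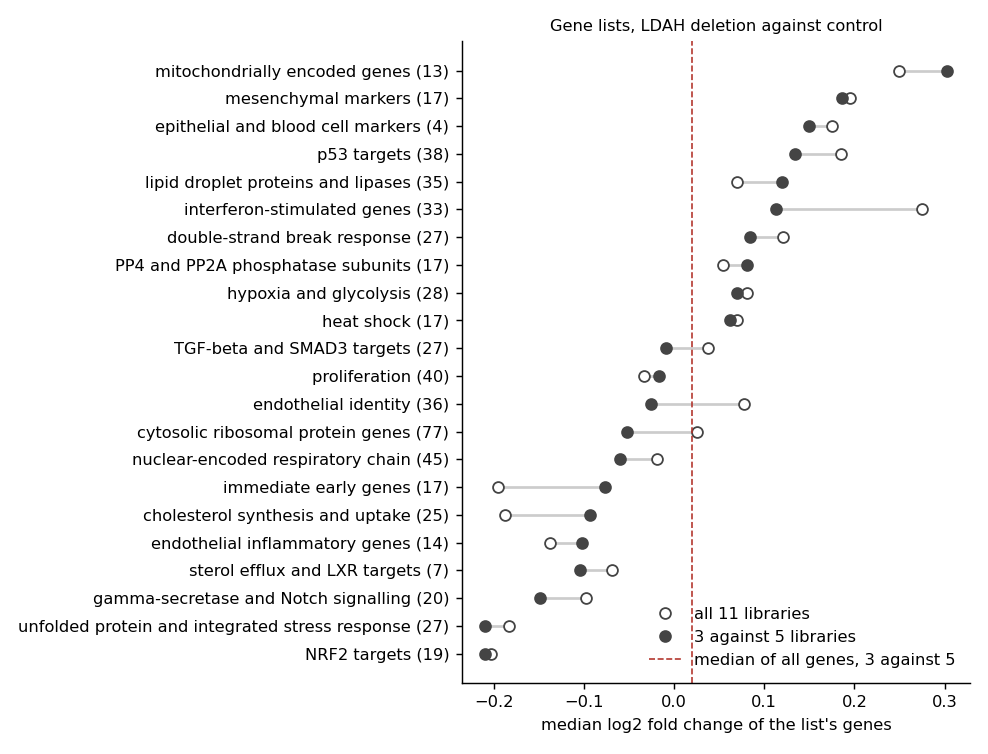
Median log2 fold change of the members of 22 gene lists (rows, number of genes tested in 3 against 5 in brackets), with all 11 libraries (open) and in 3 against 5 libraries (filled); the dashed line marks the median of all genes at 0.02. Mitochondrially encoded genes lie highest at 0.30, and NRF2 targets and the unfolded protein response lowest at -0.21.

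The genes called lower had shorter transcripts, with a median of 2117 bases against 3136 for all tested genes, and those called higher longer ones, at 4337 bases. Of the 169, 64 were in the shortest of the 5 length groups and 7 in the longest; of the 28, 6 and 13. In deletion replicates 1 to 3 the median gene stood at -0.051 to -0.011 in the shortest group and at 0.045 to 0.106 in the longest, replicate 3 being the most tilted at both ends. Control replicates 1 to 5 ran from -0.026 to 0.043 in the shortest group and from -0.027 to 0.053 in the longest. Deletion replicates 1 and 2 lay within these ranges and replicate 3 outside them. With an offset for length, added after seeing the data, 175 genes were called, 167 of them shared with the 197. Called genes were spread over all chromosomes from 1 to 22 and X, at 0.526% to 2.94% of tested genes, with 9 of 773 (1.16%) on chromosome 2.

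HPRT-targeted cells of the same set also had their genome cut, so they give the values of another guide that cuts. The 5 libraries of set B that stand apart include HPRT-targeted replicates 2 and 4, so without them HPRT targeting rests on replicates 1 and 3. Without the 5, edgeR called 77 of 12153 genes (0.634%) between the LDAH deletion and HPRT targeting. With all libraries it called 0, and 497 of 11769 had an unadjusted p under 0.05. HPRT targeting against the negative control gave 0 edgeR calls in the same 10 libraries, where 350 genes had an unadjusted p under 0.05. KLF2 had -2.06 ± 0.28 in the LDAH deletion against HPRT-targeted cells (adjusted p = 0.000483), CD9 -2.20 ± 0.28 (0.000268), TXN -1.36 ± 0.19 (0.000884) and PPP4C -3.57 ± 0.51 (0.000884). CCN1, HES1 and CDH5 differed as well, at -1.32 ± 0.24, -1.66 ± 0.29 and -1.02 ± 0.18. MDM2 was at 0.14 ± 0.18 in this contrast (adjusted p = 0.877) and ranged from 227 to 301 CPM in the HPRT-targeted libraries, much as in the LDAH deletion. CDKN1A was at -0.035 ± 0.19 and EGFL7 at 0.37 ± 0.25 (adjusted p = 0.668). LDAH itself was at -1.39 ± 0.44 against HPRT targeting with all libraries (95% interval -2.32 to -0.46, edgeR adjusted p = 0.948) and at -0.34 ± 0.42 without the 5 libraries. These contrasts use the same 3 deletion libraries as the calls above, so they are no second observation of them.

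The SMAD3 enhancer deletion of set A shares no library with the LDAH deletion, and the difference of the 2 effects, each against its own control, was tested directly. The LDAH side of that difference uses the libraries by which the genes below were named, so it is no second observation of the LDAH effect. Without the 7 libraries of the series that stand apart, 68 of 12366 genes (0.550%) differed by edgeR, and with all 27 libraries 0 did, while 439 of 12055 had an unadjusted p under 0.05. KLF2 was at 0.25 ± 0.21 in the SMAD3 deletion, and the difference was -2.38 ± 0.30 (edgeR adjusted p = 6.39e-05). PPP4C differed by -3.80 ± 0.53 (0.000298), CD9 by -1.84 ± 0.30 (0.00279), RAP2A by -1.28 ± 0.21 (0.00279), MYC by -1.54 ± 0.31 (0.018) and TXN by -1.09 ± 0.23 (0.0227). For MDM2 the SMAD3 deletion had 0.45 ± 0.17 and the difference was 0.27 ± 0.23 (adjusted p = 0.809). MTRNR2L8 had 1.26 ± 0.23 in the SMAD3 deletion and a difference of -0.26 ± 0.32. The level of LDAH differed between the 2 effects by -0.28 ± 0.37 (adjusted p = 0.898).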

How the data were processed

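RNA was measured in 27 libraries of teloHAEC by 3' tag sequencing with 86 cycles. The authors deposited raw counts per gene in 1 table of 14008 genes; hg38 and edgeR 3.24.3 are listed in the submitters' processing notes, with the aligner and counter not given in the sources used here. All count columns were mapped to samples, and 0 were left unused. Totals ran from 3.43 to 7.75 M counts, and floors take 3 counts and cover counting error only. Symbols came from the reference tables for 13949 genes and from GENCODE 29 (GRCh38) for 57, and 2 have none; 13899 have a position.

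In R 4.3.3, edgeR 4.0.16 (TMM factors, filterByExpr, quasi-likelihood test, Benjamini-Hochberg threshold 0.05) was fitted to the 15 libraries of set B, and again to 8 libraries without the 3 that stand apart. DESeq2 1.42.0 and limma 3.58.1 (voom with sample quality weights) were alternatives. SE is the log2 fold change divided by the root of F. LDAH was also tested by an exact permutation of log2 CPM with a prior count of 2. Genes were named by the smallest p, 12 per direction and fit with a mean of at least 10 CPM, by the smallest p among genes whose groups do not overlap, 12 in all, within 1 Mb of LDAH, and 4 per list by the fit of 15. Called members of lists, NFATC3, DGAT1, PLIN2, ABHD5 and PNPLA2 were added after their values were seen. The members and lists were chosen with earlier results of these data known. Nothing says that replicates are separate cultures, so p-values measure only the spread between these samples, which may be technical. Replicate pairs differed by more than sampling noise, by a chi-square over its degrees of freedom of at least 8.45.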

Additional observations from a re-analysis of the deposited data

Results flagged for a closer look

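A library was marked where it lay far from the others of its group, in 23 of 204 groups of values. Chance marks about 1 in 20 where the values played no part in the choice of genes. Many of these genes were named by a fit without LDAH deletion replicate 4 and control replicates 6 and 7. That choice favours genes in which the other deletion libraries were alike, so the rate does not apply to replicate 4 in them. The number of marks is therefore not read against chance. LDAH deletion replicate 4 was the library marked in 16 of the 23 groups. It had the smallest total, 3.43 M counts, and the largest ribosomal protein share, 17.1%. It lay above the other deletion libraries at 40.4 CPM of SDC1, 608 CPM of LAPTM4A, 70.2 CPM of ISG15, 16.8 CPM of SDHD, 5.90 CPM of ENSG00000263276, 46.3 CPM of KLF2, 414 CPM of CD9, 52.8 CPM of PPP4C, 311 CPM of C1QBP, 110.3 CPM of RAP2A, 154 CPM of C4orf48, 36.3 CPM of UBXN8 and 1342 CPM of RPL19. It lay below them at 23.0 CPM of SMG1. Among the controls, replicate 7 stood out at 68.9 CPM of RHOB, 34.1 CPM of MTX2 and 785 CPM of MYL12B. Control replicate 1 did at 15.8 CPM of MAP3K1, replicate 2 at 7.98 CPM of PTPN4, replicate 4 at 45.7 CPM of MYC and replicate 6 at 189 CPM of COX6C.

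For 19 of 98 named genes the effect of the LDAH deletion differed from that of the SMAD3 deletion in edgeR's test of the difference over 20 libraries. Over all genes tested 68 of 12366 (0.550%) did. Most of the 98 were named by a small p in the LDAH comparison, whose libraries are part of this test. The larger share among them therefore follows from the choice of genes. The differences on the log2 scale were -9.86 for ENSG00000263276, a fitted value that is no bound because 3 libraries were at 0, -3.80 for PPP4C, -2.59 for EHBP1-AS1 and -2.38 for KLF2. They were -1.84 for CD9, -1.79 for NCSTN, -1.70 for CHST14, -1.55 for RNF130, -1.54 for MYC and -1.51 for CCNE2. Smaller ones were -1.40 for C1QBP, -1.34 for TNFRSF12A, -1.28 for RAP2A, -1.16 for CCN1, -1.09 for TXN, -0.94 for MANF, -0.87 for ACTN4, -0.86 for MYL12B and -0.77 for RPL30.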

How the results depend on the processing

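Under the alternatives for all 11 libraries, the number of genes called, 0 in edgeR, became 14 with DESeq2, 9 with all 27 libraries in the fit, 212 without the 5 libraries of set B that stand apart and 2 (KLF2 and CD9) with those HPRT-targeted libraries kept. Leaving out 1 library gave 0 to 3, the 3 (KLF2, CD9 and PPP4C) without LDAH deletion replicate 4. In 3 against 5 libraries the 197 calls became 371 with DESeq2 and 112 with limma voom, and 51 to 205 with 1 library left out. The contrast with HPRT targeting went from 0 to 77 calls and that with the SMAD3 deletion from 0 to 68 without the libraries that stand apart. Of 61 named genes of the 3 against 5 comparison, 21 passed in all 14 alternatives and 40 lost a call in at least 1, of which 39 did with a library left out; 0 reversed. Among neighbours, HS1BP3 turned to 0.045 with limma voom, 0.061 without the 5 libraries of set B that stand apart, 0.069 without the 3 and 0.036 with a length offset. SDC1 turned to -0.71, -0.82 and -0.81 under the first 3 of these, LAPTM4A to 0.0080 with the length offset and WDR35 to -0.053 with limma voom. With 1 library left out, the ranges were -0.10 to 0.058 for HS1BP3, -0.38 to 0.15 for RHOB, -0.74 to 0.50 for SDC1, -0.37 to 0.17 for LAPTM4A, -0.095 to 0.19 for WDR35 and -0.092 to 0.14 for TTC32. The cause was not tested. No paired analysis was possible because the labels give the libraries no shared replicate numbers. LDAH, with 9 to 113 reads per library, is limited by depth. The length offset was chosen after seeing the data.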
